A study of Mus musculus with 36 samples.

Results

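The 33 genes described here encode parts of the lysosome and of autophagy, the route by which cells deliver their own contents to it. They were chosen by name: 80 probe sets of the Affymetrix MOE430 arrays, 64 on chip A and 16 on chip B, are annotated to 1 of these symbols and no other. That is 33 of 18193 genes, and 80 of 35041 probe sets with a single symbol. Of the 33 genes, 15 encode hydrolases or their activators, 6 encode membrane, lipid export or channel proteins, 3 encode parts of the proton pump, 8 belong to the autophagy machinery and 1 is a transcription factor.

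RNA came from primary fibroblasts of tendon, cornea and skin, isolated from fetuses of a CD1 mouse 19 days after conception and expanded in culture before being seeded on gelatin-coated glass. In each tissue, 3 libraries came from cells kept 14 h under unmoving medium (static) and 3 from cells that medium streamed over for 14 h, in laminar flow with a shear of 0.1 dyn/cm2 (flow). All groups had 2% fetal calf serum in the medium, no group carried an engineered allele, and the 6 groups make 18 libraries, each hybridised to chips A and B. The description of the tendon flow arrays names cornea, whereas the title, source and scan record of each name tendon, and they are treated here as tendon.

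A lysosome is an acidic compartment: a proton pump, the V-ATPase, lowers its pH, and hydrolases inside it break down proteins, sugars and lipids. In macroautophagy a membrane decorated with Atg8-family proteins closes around cargo, which receptors such as p62 hold there, and fuses with the lysosome. Many genes of this system respond to the transcription factor TFEB and its relatives, and fibroblasts of connective tissue use lysosomal proteases, cathepsin K among them, to degrade collagen they have taken up.

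Upstream sequences are shown for the genes on which the results turn: the autophagy genes with the 2 smallest p-values for flow (Sqstm1, Gabarapl1) and 3 enzymes that were lower in corneal fibroblasts than in both other tissues (Ctsk, Hexa, Gla). RefSeq promoter windows (GRCm38.p6, 250 bases before to 50 after a transcription start) were found for 27 of the 33 genes, with 32 windows in all. They were searched on both strands for the E-box CACGTG, which TFEB-family factors bind, for the palindrome of the lysosomal CLEAR element, an E-box with GT before and AC after it, and for TGACNNNGC, the core of the antioxidant response element. The 250 bases before the start are printed 5′ to 3′, with matches in capitals, which are the antioxidant response element core in Hexa and the E-boxes in Gla.
Sqstm1 (chr11:50210821-50211070, minus strand): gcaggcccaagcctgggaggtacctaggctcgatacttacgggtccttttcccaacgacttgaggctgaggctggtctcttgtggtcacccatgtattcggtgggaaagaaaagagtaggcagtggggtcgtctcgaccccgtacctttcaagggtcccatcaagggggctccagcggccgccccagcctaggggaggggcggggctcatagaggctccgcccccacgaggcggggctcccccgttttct
Gabarapl1 (chr6:129532942-129533191, plus strand): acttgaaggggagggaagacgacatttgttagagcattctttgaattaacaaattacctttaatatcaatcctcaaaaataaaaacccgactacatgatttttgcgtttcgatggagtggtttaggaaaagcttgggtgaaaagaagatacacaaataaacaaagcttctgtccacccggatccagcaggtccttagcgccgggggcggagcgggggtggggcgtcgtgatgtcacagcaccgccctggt
Ctsk (chr3:95498960-95499209, plus strand): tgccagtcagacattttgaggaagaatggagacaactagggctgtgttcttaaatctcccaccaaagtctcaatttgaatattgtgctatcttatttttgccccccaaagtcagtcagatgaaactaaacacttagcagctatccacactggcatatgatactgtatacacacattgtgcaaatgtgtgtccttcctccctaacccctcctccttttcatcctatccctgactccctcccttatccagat
Hexa (chr9:59539290-59539539, plus strand): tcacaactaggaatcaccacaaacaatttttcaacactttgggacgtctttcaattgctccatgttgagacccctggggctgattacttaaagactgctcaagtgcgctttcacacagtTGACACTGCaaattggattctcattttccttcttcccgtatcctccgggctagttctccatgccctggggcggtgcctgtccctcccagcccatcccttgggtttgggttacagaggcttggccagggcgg
Gla (chrX:134601006-134601255, minus strand): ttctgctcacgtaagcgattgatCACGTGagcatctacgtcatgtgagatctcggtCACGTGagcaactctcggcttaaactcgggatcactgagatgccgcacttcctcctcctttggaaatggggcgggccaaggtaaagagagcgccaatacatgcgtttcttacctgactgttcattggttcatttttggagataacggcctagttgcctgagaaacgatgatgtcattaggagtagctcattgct

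An E-box lay in 10 of the 32 windows, those of Atg5, Atp6v0d1, Cln3, Ctsa, Ctsd, Gaa, Gla, Glb1, Lamp1 and Mcoln1, while 7.15% of the 32851 promoter windows of all genes held one. The palindrome was found in 1 of the 32 windows, that of Cln3 (0.326% of all windows), and the antioxidant response element core in 8 of them (12.4% of all windows). Sqstm1, Gabarapl1 and Ctsk had none of the 3 motifs in these windows. A match is a run of letters, not a binding site.

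The deposited values are log2 levels from RMA, which sets the arrays of a chip on 1 scale, and a difference of 1 is a 2-fold change. Each gene is given by 1 probe set, which lay on chip A for all 33, and levels are compared only within a probe set. Group differences are log2 differences ± SE from limma, adjusted by the Benjamini-Hochberg method over all 18193 genes, and a gene is called at an adjusted p below 0.05. The spread between libraries of a group was wider for these genes (median within-group SD 0.242) than for all genes (0.178), and ran from 0.092 for Npc2 to 0.534 for Neu1. Of the 33 genes only Ctss, a cathepsin of antigen-presenting cells, had a mean (5.61) below the 25th percentile of chip A (5.95).

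Fibroblast markers were high in every group, with 9 of 10 above the median of their chip, among them Col1a1, Col1a2 and Vim. Of 15 macrophage markers 3 (Csf1r, Cd14, Laptm5) and of 7 osteoclast markers 3 (Dcstamp, Mmp9, Itgb3) lay above the chip median, while Ptprc (4.84) and Itgam (4.66) were near the bottom. The keratocyte gene Kera was dim in corneal libraries (4.72 static, 4.62 flow), but Foxc1, a factor of the eye's anterior segment, was higher in them (8.77 static) than in tendon (7.04) or skin (6.87). Of 5 tendon markers, Thbs4 was higher in tendon (8.90 static) than in cornea (6.24) or skin (5.81), and Mkx, a tendon transcription factor, stood at 6.14, 5.35 and 5.22 in the same order. Fmod separated tendon (9.50) from skin (8.60) but not from cornea (9.48), Tnmd stood at 9.50, 9.28 and 9.30, and the tendon factor Scx was dim in tendon (5.60) and in cornea (6.03).

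Flow against static medium asks how these genes differed when medium streamed over the cells. Averaged over the 3 tissues, 1 of 33 genes rose, Sqstm1, and none fell, beside 0.632% of all genes called higher and 0.264% called lower. Sqstm1 encodes p62, the receptor that ties ubiquitinated cargo to the forming autophagosome and is itself degraded by autophagy. Its averaged response was 0.74 ± 0.13 (adjusted p = 0.0093), a 1.66-fold rise. The 33 genes lay on the positive side more often than not: 27 of 33 averaged responses were above 0, with a median of 0.14, against 46.1% of all genes and a median of -0.01. Unadjusted p-values were below 0.05 for 7 of the 33, and for 11.2% of all genes.

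Each tissue showed the Sqstm1 difference library by library. In tendon its level was 10.53, 9.98 and 10.04 in static libraries 1 to 3 and 11.30, 10.76 and 11.08 under flow. In cornea it was 9.97, 10.51 and 10.99 static and 11.12, 11.25 and 11.54 under flow. In skin it was 10.46, 10.77 and 10.64 static and 10.99, 11.21 and 11.27 under flow. Every flow library lay above every static library of its tissue, although in cornea the highest static library (10.99) came close to the lowest flow library (11.12). Taken tissue by tissue the response was 0.86 ± 0.22 in tendon (adjusted p = 0.36), 0.81 ± 0.22 in cornea (0.50) and 0.53 ± 0.22 in skin (1.0), so none of these passed alone.

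Scan records gave the day of culture for the libraries of the later scan batch. They link 8 static and flow libraries into pairs, 3 in tendon, 3 in skin and 2 in cornea, where the first-batch pairs rest on a shared replicate number. Sqstm1 was higher under flow in 8 of 8 pairs, by 0.44 to 1.28. With blocks for culture day it was called on average (0.77 ± 0.08, adjusted p = 0.00019), in tendon (0.86 ± 0.13, adjusted p = 0.0066) and in cornea (0.91 ± 0.16, adjusted p = 0.037), but not in skin (adjusted p = 0.15). The block raised calls across all genes too: 4.69% of genes were then called higher on average, 0.704% in tendon, 0.28% in cornea and 0.258% in skin. In scan batch 1 alone, with a single library of each state, the Sqstm1 response was 0.77 in tendon and 0.53 in skin. These are the first-batch pairs already counted above. Within batch 2 the average Sqstm1 response was 0.78. The other Sqstm1 probe set, on chip B and dim (5.52), gave 0.06 ± 0.08.

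Gabarapl1, an Atg8-family protein that is conjugated to autophagosome membranes, had the next smallest p-value and just missed the threshold. Its level was 11.14, 10.95 and 10.79 in static and 11.72, 11.14 and 11.55 in flow libraries of tendon. It was 10.78, 10.70 and 10.41 against 11.33, 11.87 and 10.89 in cornea, and 11.24, 11.38 and 10.94 against 11.44, 11.91 and 11.47 in skin. The groups did not overlap in cornea and skin, and in tendon flow library 2 equalled the highest static library. The averaged response was 0.55 ± 0.13 (95% interval 0.29 to 0.82, adjusted p = 0.051), and 8 of 8 pairs were higher under flow, by 0.19 to 1.09. Its other probe set gave 0.77 ± 0.18. With culture day blocks it was called (0.57 ± 0.09, adjusted p = 0.0027).

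**Figure D1:**
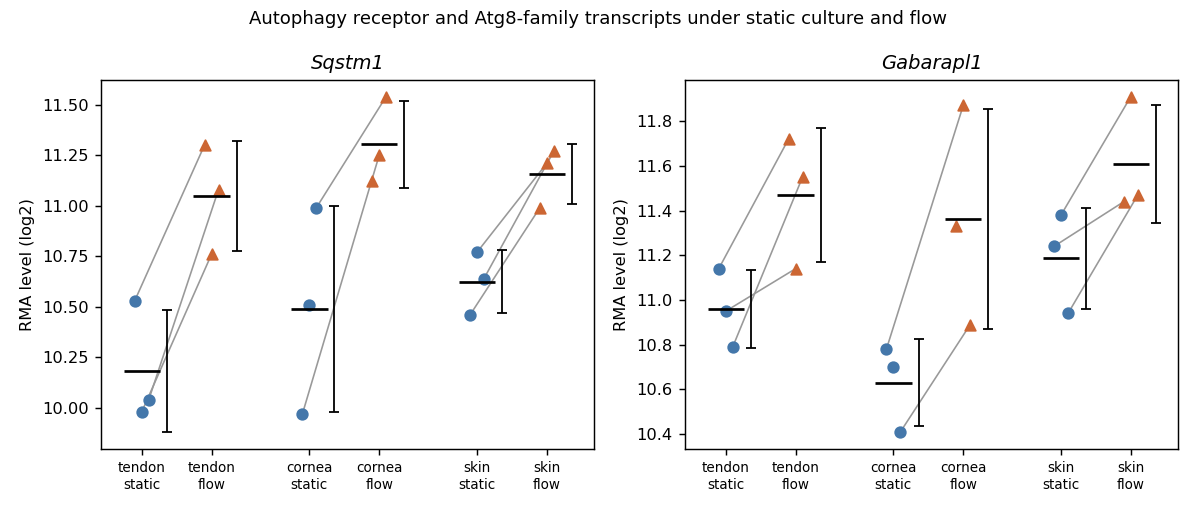
Level of Sqstm1 and Gabarapl1 (RMA, log2) in each of the 18 libraries by tissue and state (circles static, triangles flow), with group means as bars and the SD of 3 libraries beside them. Grey lines join the 8 static and flow libraries of 1 culture day or first-batch replicate number, and both genes are higher under flow in all 8.

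The other autophagy genes gave smaller differences, none called without the block. Ulk1 encodes the kinase that starts autophagosome formation. Its level was 8.46, 8.22 and 8.09 static and 8.52, 8.55 and 8.50 under flow in tendon, 8.55, 8.47 and 8.51 against 8.49, 9.14 and 8.56 in cornea, and 8.29, 8.43 and 8.40 against 8.59, 8.72 and 8.69 in skin. Cornea alone overlapped, and its difference of 0.22 was 0.01 without cornea flow 2. The averaged Ulk1 response was 0.26 ± 0.08 (adjusted p = 0.18). It was higher in 8 of 8 pairs, by 0.05 to 0.59, and was called once culture days were blocked (0.29 ± 0.07, adjusted p = 0.029), while its other probe set gave -0.12 ± 0.09. The difference of Map1lc3b, an LC3 gene, was 0.21 ± 0.10, with 7 of 8 pairs higher. Its other bright probe sets gave 0.41 ± 0.18 (95% interval 0.03 to 0.79) and 0.06 ± 0.14, and a dim one gave 0.03 ± 0.06. Atg5 (0.12 ± 0.11), part of the enzyme that conjugates Atg8 proteins, Becn1 (0.08 ± 0.11), a subunit of the lipid kinase complex of autophagy, and Wipi1 (0.04 ± 0.11), which reads that kinase's lipid, all had 95% intervals that included 0. A dimmer Atg5 probe set gave 0.40 ± 0.16 on chip A (95% interval 0.07 to 0.73) and 0.26 ± 0.20 on chip B, and another gave 0.17 ± 0.09. Map1lc3a, the other LC3 gene, gave -0.15 ± 0.14, and its tendon value of -0.44 became -0.04 without tendon flow 3, where its level was 8.15 against 9.04 to 9.64 in the other tendon libraries. The difference of Tfeb was -0.01 ± 0.07, with a 95% interval of -0.17 to 0.14 and group means between 8.47 and 8.54.

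Among the 15 hydrolases and activators, 13 averaged responses were above 0 and none was called. The smallest p-value was that of Hexa, the alpha subunit of beta-hexosaminidase (0.17 ± 0.08, adjusted p = 0.40). Gaa, acid alpha-glucosidase, which breaks down glycogen in the lysosome, gave 0.30 ± 0.14 (adjusted p = 0.44), in this probe set mostly from tendon (0.68 ± 0.24). That tendon value was 0.33 without tendon static 3, where Gaa stood at 8.45 against 9.80 and 9.18 in the other static libraries. The other Gaa probe set did not single out tendon, with 0.37 ± 0.25 there, 0.43 ± 0.25 in cornea and 0.25 ± 0.25 in skin. Its average was 0.35 ± 0.14. Gla, alpha-galactosidase A, gave 0.28 ± 0.14 (adjusted p = 0.47) and was also called once culture days were blocked (0.32 ± 0.07, adjusted p = 0.019), with 7 of 8 pairs higher. A dim Gla probe set on chip A gave -0.04 ± 0.12, and one near the bottom of chip B gave -0.05 ± 0.05. For the cathepsins the differences were 0.03 ± 0.14 for Ctsk (95% interval -0.26 to 0.33), 0.03 ± 0.08 for Ctsb, 0.12 ± 0.08 for the aspartic protease Ctsd, 0.07 ± 0.10 for Ctsz and -0.10 ± 0.09 for Ctss. The other hydrolases and activators lay between 0.19 ± 0.11 for Psap and -0.04 ± 0.08 for Asah1, acid ceramidase. Between them were the glycosidases Gusb (0.18 ± 0.14), Glb1 (0.14 ± 0.08) and Neu1 (0.05 ± 0.22), the tripeptidyl peptidase Tpp1 (0.16 ± 0.14) and Ctsa (0.17 ± 0.11), which protects Glb1 and Neu1. With the block, 4 of 33 genes were called on average, all higher, where 4.69% of all genes were.

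Of the membrane and lipid export genes, Npc1, the cholesterol exporter of the lysosomal membrane, had the smallest p-value (0.31 ± 0.11, adjusted p = 0.26), and its groups did not overlap in cornea. The Npc1 value in tendon, 0.24, was -0.02 without tendon static 3. Cln3, a membrane protein lost in juvenile neuronal ceroid lipofuscinosis, gave 0.23 ± 0.10 (adjusted p = 0.38). The calcium channel Mcoln1 gave 0.15 ± 0.10, and the structural membrane proteins Lamp1 and Lamp2 gave 0.05 ± 0.06 and -0.03 ± 0.11. Another Mcoln1 probe set on chip A gave 0.26 ± 0.09 (95% interval 0.06 to 0.45), and a dim one on chip B gave 0.07 ± 0.05. The lumenal cholesterol carrier Npc2 had a 95% interval of -0.12 to 0.12 and values between 13.28 and 13.71 in the 18 libraries. The 3 proton pump genes were each positive, Atp6v1h at 0.22 ± 0.14, Atp6v0d1 at 0.15 ± 0.11 and Atp6ap1 at 0.12 ± 0.07, and none was called.

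**Figure D2:**
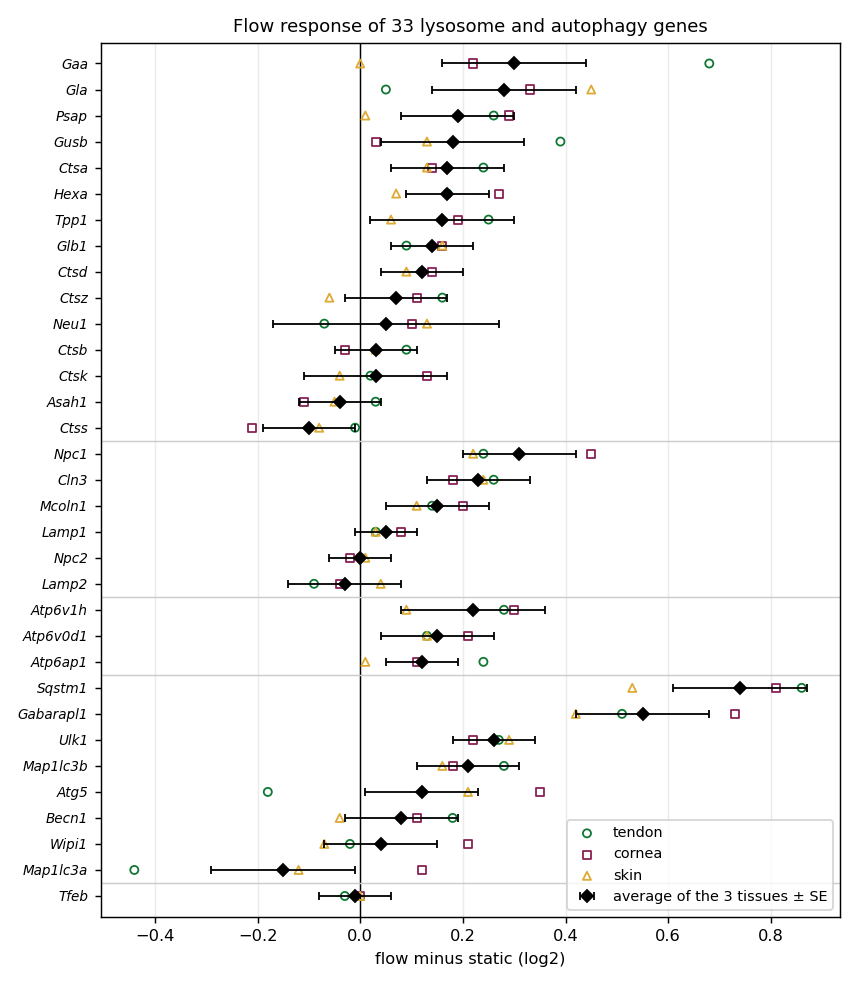
Flow minus static (log2) for the 33 genes, grouped from the top as hydrolases and activators, membrane and lipid export, proton pump, autophagy, and Tfeb, and ordered within a group by the average. Open symbols are the 3 tissues and black diamonds the average with its SE; Sqstm1 (0.74) and Gabarapl1 (0.55) lie farthest right and 27 of 33 diamonds lie above 0.

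Within single tissues none of the 33 genes was called, where 0.0605% of all genes were called in tendon, 0.022% in cornea and 0.0275% in skin. At an unadjusted p below 0.05 the counts were 3, 3 and 1 of 33 genes, where 4.36%, 5.39% and 3.01% of all genes passed it. Flow and static libraries did not overlap for 3 genes in tendon (Sqstm1, Ulk1, Atp6ap1), 4 in cornea (Sqstm1, Gabarapl1, Hexa, Npc1) and 5 in skin (Sqstm1, Gabarapl1, Ulk1, Gla, Cln3). All of these were higher under flow, where 4.71%, 5.94% and 4.18% of all genes were higher without overlap. Whether the response differed between tissues was tested by the interaction: 0 of 33 genes were called (0.0% of all genes), and 0 had an unadjusted p below 0.05 (0.781% of all genes), the smallest being 0.14 for Atg5. The share over all genes is itself far below 0.05, so the test was conservative in this fit.

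Among 139 other genes of the pathway, 1 rose with flow on average and none fell, a share of 0.719% where 0.896% of all genes were called. It was Tfec (0.64 ± 0.12, adjusted p = 0.016), a transcription factor of the TFEB family, measured by a dim probe set (mean 6.76) and higher in 7 of 8 pairs. The group means were 6.48 ± 0.11 static and 7.39 ± 0.22 flow in tendon, 6.23 ± 0.08 and 6.73 ± 0.53 in cornea, and 6.62 ± 0.28 and 7.12 ± 0.11 in skin (SD, n = 3). Of 14 further V-ATPase genes 13 averaged responses were above 0, with a median of 0.17 and none called. Medians of the other lists lay between 0.04 and 0.09.

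A measure of RNA integrity, the 3′ minus 5′ difference of the beta-actin control probe sets, ran from 0.638 to 1.44 in static and from 0.738 to 1.75 in flow libraries. With it as a covariate the Sqstm1 response was 0.74 ± 0.15 (adjusted p = 0.029) and that of Gabarapl1 0.51 ± 0.14 (adjusted p = 0.12). In bulk cultures, more RNA per cell and more cells of a type that holds more of it cannot be told apart.

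The comparison of tissues asks how the fibroblasts differ by origin. Corneal fibroblasts held less of several lysosomal hydrolase transcripts than tendon or skin fibroblasts, and none of the 33 genes was called higher in them. Averaged over static and flow (6 libraries a tissue), 4 of 33 genes were lower in cornea than in tendon (Ctsk, Hexa, Gla, Ctsb), where 2.67% of all genes were lower. Against skin, 7 of 33 were lower (Ctsk, Hexa, Npc1, Psap, Gla, Gaa, Ctsz), where 2.89% of all genes were. Between tendon and skin none was called, where 3.63% of all genes were, and the smallest adjusted p was 0.17, for Npc1 (-0.37 ± 0.13). The first 2 comparisons share the corneal libraries, so they are not independent of each other. Static and flow libraries paired by culture deviated together from their group means, so the 6 libraries of a tissue are not 6 independent cultures. The fit counted them as independent, so the SE and p-values of the averaged tissue differences may be too small.

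All 15 hydrolases and activators had a negative difference from cornea to tendon (median -0.20) and from cornea to skin (median -0.36). Over all genes the medians were -0.04 and -0.02. The 8 autophagy genes had medians of 0.09 and -0.03, with none called, and the widest differences among them were those of Map1lc3a from tendon (0.43 ± 0.18) and Gabarapl1 from skin (-0.40 ± 0.16). The Map1lc3a difference includes the low tendon flow 3 (8.15), and its other probe set gave 0.15 ± 0.09. The 6 membrane genes had medians of -0.13 and -0.21 and the 3 proton pump genes -0.06 and -0.27. Taking all 33 genes together, 27 had a negative difference from tendon (median -0.13) and 29 from skin (median -0.21). Over all genes, too, positive differences were the minority, at 39.7% and 41.9%. The 6 corneal libraries lay below all 6 of skin for 6 genes (Ctsk, Hexa, Psap, Gaa, Ctsz, Ctsb; 2.3% of all genes) and below all 6 of tendon for 1, Ctsk (2.15% of all genes).

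**Figure D3:**
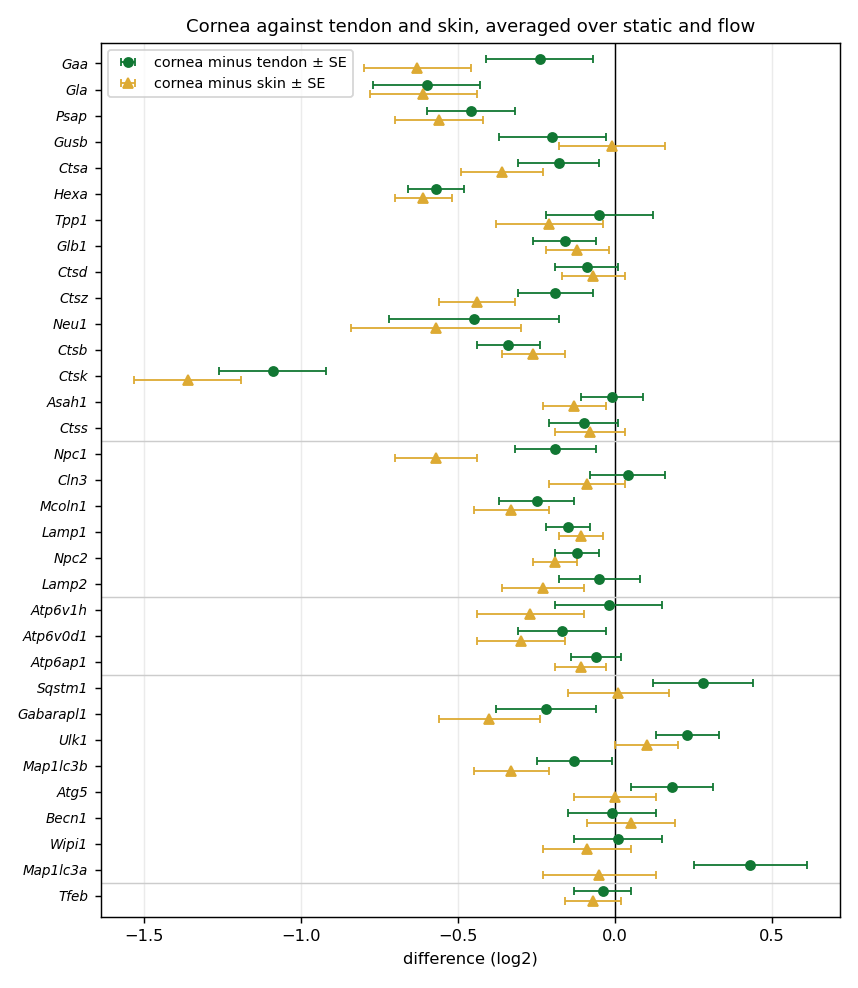
Difference in level (log2 ± SE) of cornea from tendon (circles) and from skin (triangles), averaged over static and flow, for the 33 genes in the same groups and order as in the plot of flow responses. Ctsk lies farthest left (-1.09 and -1.36), and all hydrolases and activators in the top block lie below 0.

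Ctsk encodes cathepsin K, a cysteine protease that cleaves fibrillar collagen and is best known from osteoclasts. In cornea its level was 10.04, 10.63 and 10.58 static and 10.77, 10.09 and 10.77 under flow. In tendon it was 11.93, 11.36 and 11.38 static and 11.96, 11.24 and 11.52 under flow, and in skin 12.22, 11.56 and 11.81 static and 12.02, 11.61 and 11.84 under flow. Every corneal library lay below every library of tendon and skin. The difference was -1.09 ± 0.17 from tendon (adjusted p = 0.00072) and -1.36 ± 0.17 from skin (adjusted p = 8.1e-05), that is 2.12-fold and 2.57-fold lower. In scan batch 1, where cornea has 1 flow library, the differences under flow were -1.19 and -1.25, and within batch 2 they were -0.95 and -1.28 over both states.

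Hexa encodes the alpha subunit of beta-hexosaminidase A, which degrades gangliosides. Its level was 11.99, 12.24 and 12.23 in static and 12.58, 12.33 and 12.36 in flow libraries of cornea. In tendon it was 12.95, 12.85 and 12.52 static and 13.13, 12.84 and 12.87 under flow, and in skin 12.88, 12.96 and 12.75 static and 12.97, 13.05 and 12.78 under flow. Cornea lay below skin in every library, and cornea flow 1 (12.58) lay above tendon static 3 (12.52). The difference was -0.57 ± 0.09 from tendon (adjusted p = 0.00088) and -0.61 ± 0.09 from skin (adjusted p = 0.00052).

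Gla was 7.69, 8.48 and 8.49 in static and 8.56, 8.29 and 8.79 in flow libraries of cornea. It was 9.26, 8.86 and 8.75 static and 9.55, 8.69 and 8.77 under flow in tendon, and 8.70, 8.64 and 8.97 static and 9.27, 9.15 and 9.23 under flow in skin. The differences, -0.60 ± 0.17 from tendon (adjusted p = 0.045) and -0.61 ± 0.17 from skin (adjusted p = 0.038), were -0.46 ± 0.15 (adjusted p = 0.11) and -0.48 ± 0.15 (adjusted p = 0.089) without cornea static 1, the lowest of the 18 libraries. A dim probe set of Gla on chip A gave -0.15 ± 0.14 and -0.35 ± 0.14, and one near the bottom of chip B -0.04 ± 0.06 and -0.14 ± 0.06.

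Psap, the precursor of the saposins that present lipids to lysosomal enzymes, was 10.36, 10.62 and 10.84 static and 11.04, 10.83 and 10.82 under flow in cornea. In skin it was 11.40, 11.21 and 11.33 static and 11.63, 11.10 and 11.24 under flow, with no overlap, and in tendon 11.38, 11.22 and 10.64 static and 11.67, 11.03 and 11.32 under flow. Its difference was -0.56 ± 0.14 from skin (adjusted p = 0.022) and -0.46 ± 0.14 from tendon (adjusted p = 0.071). The same probe set on chip B gave -0.44 ± 0.17 and -0.32 ± 0.17, and a different one on chip A -0.58 ± 0.18 and -0.27 ± 0.18.

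**Figure D4:**
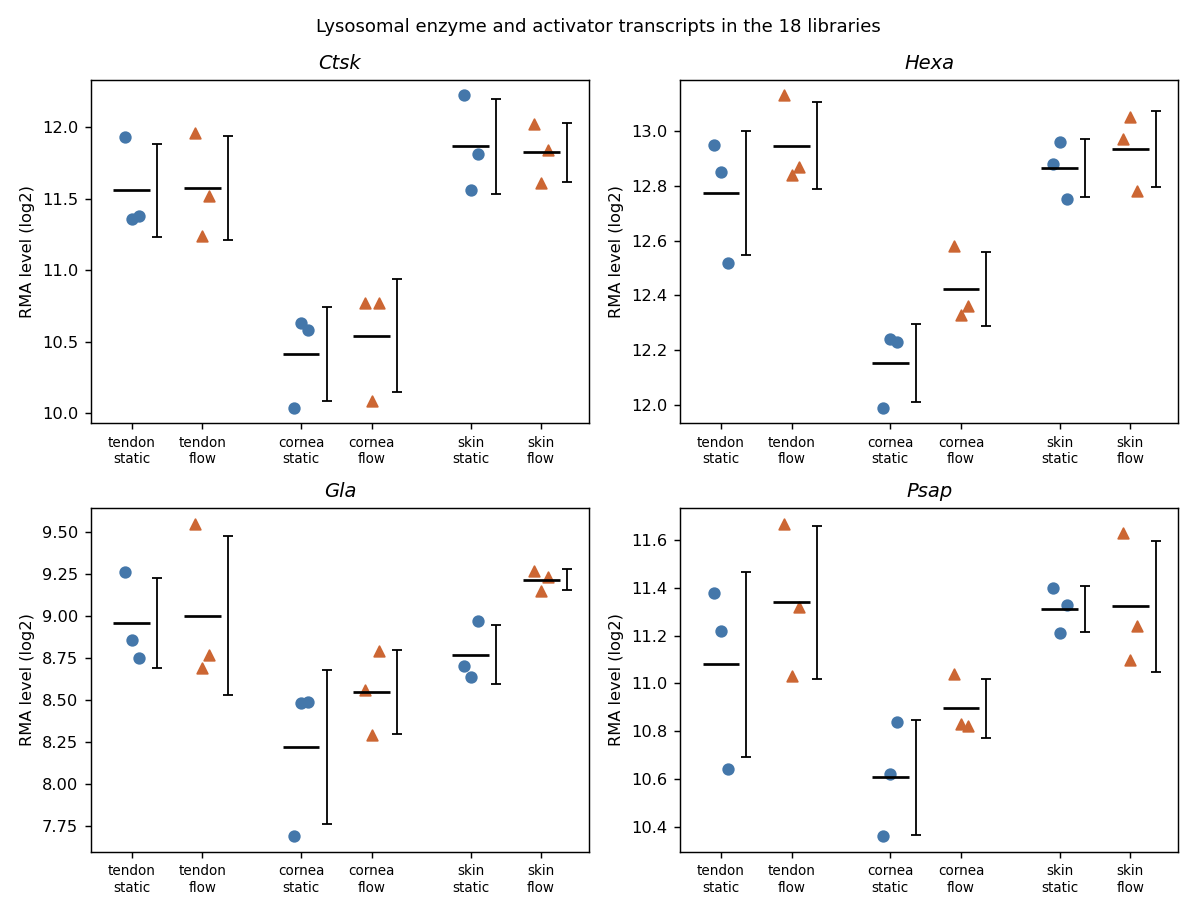
Level (RMA, log2) of Ctsk, Hexa, Gla and Psap in the 18 libraries by tissue and state (circles static, triangles flow), with group means as bars and the SD of 3 libraries beside them. All 6 corneal libraries of Ctsk lie at or below 10.77 and all 12 others at or above 11.24.

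Npc1 was lower in cornea than in skin (-0.57 ± 0.13, adjusted p = 0.016), with 6.33, 6.49 and 6.59 static and 6.92, 6.99 and 6.87 under flow in cornea. In skin it was 7.20, 6.95 and 7.32 static and 7.56, 7.26 and 7.30 under flow, and in tendon 7.01, 7.07 and 6.25 static and 7.32, 6.81 and 6.92 under flow. Cornea and skin overlapped here, since cornea flow 2 lay above skin static 2.

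Gaa was 8.93, 9.08 and 9.38 static and 9.38, 9.28 and 9.40 under flow in cornea, against 9.89, 9.79 and 9.93 static and 9.94, 9.92 and 9.75 under flow in skin, with no overlap. Tendon was scattered, at 9.80, 9.18 and 8.45 static and 10.18, 9.50 and 9.78 under flow. The difference of cornea from skin was -0.63 ± 0.17 (adjusted p = 0.039), the same in the other Gaa probe set.

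Ctsz, a cathepsin that trims proteins from the carboxyl end, was 10.24, 10.46 and 10.32 static and 10.37, 10.50 and 10.48 under flow in cornea. Skin gave 10.98, 10.83 and 10.78 static and 10.97, 10.69 and 10.73 under flow, again with no overlap, and tendon 10.74, 10.71 and 10.06 static and 10.93, 10.36 and 10.70 under flow. Cornea differed from skin by -0.44 ± 0.12 (adjusted p = 0.039), and the 2 other probe sets gave -0.56 ± 0.16 and -0.49 ± 0.14.

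Ctsb, the most general of the cysteine cathepsins, was 12.23, 12.63 and 12.56 static and 12.46, 12.25 and 12.63 under flow in cornea. Tendon gave 13.00, 12.55 and 12.73 static and 13.01, 12.72 and 12.82 under flow, and skin 12.70, 12.67 and 12.73 static and 12.70, 12.72 and 12.77 under flow. The difference from tendon was -0.34 ± 0.10 (adjusted p = 0.045) and that from skin -0.26 ± 0.10 (adjusted p = 0.16). Its 3 other probe sets on chip A gave -0.30 ± 0.24, -0.66 ± 0.20 and -0.26 ± 0.14 against tendon and, in the same order, -0.78 ± 0.24, -0.85 ± 0.20 and -0.48 ± 0.14 against skin. The one on chip B gave 0.01 ± 0.07 and -0.07 ± 0.07.

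Gla and Ctsb against tendon, and Gla, Gaa, Ctsz and Psap against skin, had adjusted p-values close to the threshold and lost the call when single libraries were left out (13, 14, 8, 12, 12 and 4 of 18 times). Ctsk and Hexa kept it each time in both comparisons, and Npc1 did against skin.

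In static culture alone, Ctsk and Hexa were lower in cornea than in tendon (-1.14 ± 0.24 and -0.62 ± 0.13, both adjusted p = 0.015) and than in skin (-1.45 ± 0.24, adjusted p = 0.003, and -0.71 ± 0.13, adjusted p = 0.0065). These were 2 of 33 genes in each comparison, where 1.09% and 1.11% of all genes were lower. Without cornea static 1 or without tendon static 1 neither gene was called against tendon, and the values without the latter were -0.96 and -0.54. Without tendon static 3 the count against skin was 6 of 33. Counts over all genes moved too, from 231 to 497 across the fits that left out 1 library. Between tendon and skin none of the 33 was called (1.32% of all genes were), and the Gaa difference was -0.73 ± 0.24 (adjusted p = 0.25).

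Under flow only Ctsk was called, at -1.03 ± 0.24 from tendon (adjusted p = 0.042) and -1.28 ± 0.24 from skin (adjusted p = 0.0083), where 0.874% and 1.09% of all genes were lower. The call against tendon was lost in 9 of 18 fits that left out 1 library (cornea flow 1, 2 or 3, tendon flow 1 or 3, skin flow 1 or 3, cornea static 3, skin static 3), with differences from -1.20 to -0.80, the latter without cornea flow 2, and adjusted p up to 0.21. It was also lost after median centring (adjusted p = 0.069), and the call against skin was lost without skin flow 1 (adjusted p = 0.056). Between tendon and skin under flow none of the 33 was called (1.06% of all genes).

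The calls among other genes of the pathway ran in both directions between tissues. For cornea against tendon, averaged over states, 6 of 139 were called, a share of 4.32% where 5.79% of all genes were called. Lower in cornea were Mitf (-1.55 ± 0.20), a relative of TFEB, Atg7 (-0.67 ± 0.10), the enzyme that activates Atg8 proteins, Cln8 (-0.48 ± 0.12) and Sumf1 (-0.47 ± 0.11), which activates sulfatases. Ctsc, the dipeptidyl peptidase cathepsin C (1.19 ± 0.12), and Tpcn1, a lysosomal cation channel (0.36 ± 0.08), were higher. The Tpcn1 difference was not seen in its other probe sets, which gave -0.12 ± 0.10 (mean level 7.90) and -0.11 ± 0.09 (mean level 5.90).

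For cornea against skin 11 of 139 were called, a share of 7.91% where 6.16% of all genes were called. Lower in cornea were Mitf (-0.93 ± 0.20), Arsa (-0.66 ± 0.13), Pla2g15 (-0.59 ± 0.13), Atg7 (-0.57 ± 0.10), Fnip2 (-0.53 ± 0.15), Aga (-0.49 ± 0.12), Manba (-0.46 ± 0.13), Cd68 (-0.45 ± 0.09) and Atp6v1e1 (-0.31 ± 0.09). Atg16l2 (0.66 ± 0.18) and the mitophagy receptor Bnip3 (0.48 ± 0.12) were higher. Arsa, Aga, Manba and Pla2g15 encode lysosomal hydrolases, 4 of 32 other enzymes measured, and 27 of these 32 had a negative difference (median -0.18).

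Between tendon and skin 6 of the 139 were called, a share of 4.32% beside 3.63% of all genes. Ctsc (-1.45 ± 0.12), Pla2g15 (-0.55 ± 0.13) and Tpcn1 (-0.52 ± 0.08) were lower in tendon, and the galactosylceramidase Galc (0.62 ± 0.16), the transcription factor Foxo1 (0.52 ± 0.14) and Cln8 (0.49 ± 0.12) were higher. Here too the other Tpcn1 probe sets did not show the difference (0.05 ± 0.10 and 0.05 ± 0.09).

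The mean level of the 15 macrophage markers was 6.17 to 6.34 in corneal libraries, 6.30 to 6.54 in tendon and 6.26 to 6.54 in skin, and that of the 7 osteoclast markers was 6.38 to 6.66, 6.52 to 6.81 and 6.63 to 6.99. Their part in the result was not tested. The beta-actin 3′ minus 5′ difference was 0.774 to 0.991 in cornea, 0.777 to 1.75 in tendon and 0.638 to 1.69 in skin, and with it as a covariate Gla (-0.67 ± 0.20, adjusted p = 0.083) and Ctsb (-0.34 ± 0.11, adjusted p = 0.14) were not called against tendon.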

How the data were processed

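Both MOE430 chips were hybridised for each of 18 libraries (36 arrays). The deposited values of each chip are log2 levels that the authors obtained with RMA, per the submitters' processing notes; RMA corrects background, normalises by quantiles and summarises probes. Its version is not given in the sources used here. The scan records of the authors give the scan batch (5 and 13 libraries) and, for batch 2, the culture day, per the file headers and comments. A comment on skin static 2 says the material may have been more concentrated, and it was kept.

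Control probe sets (64 a chip) and probe sets with several symbols or none were left out of gene results. Each gene was represented by its probe set on chip A before chip B, avoiding cross-hybridising ones, then by the highest mean. The 6 group means were fitted per chip with limma 3.58.1 in R 4.3.3 (residual degrees of freedom 12, prior 4.05 and 4.29), without covariates, and Benjamini-Hochberg adjustment ran over the genes of both chips. The scripts were tested on simulated data. The number of arrays limits the precision. The replicates are called biological by the submitters, but no label ties them to separate fetuses, so the tests reflect spread among these libraries, which may be technical. Paired static and flow libraries deviated together from their group means (correlations 0.382 to 0.763 over genes in all 8 pairs). Of these, the first-batch pairs of tendon (0.622) and skin (0.495) rest on a replicate number, not a noted day, and also share a scan batch. The same replicate number did not pair the corneal libraries (-0.218, -0.433 and 0.408). The 2 unpaired corneal libraries, static 2 and flow 1, add nothing to the flow comparison with the culture day block.

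The 33 genes and all lists were chosen with earlier results of these data known. Every gene of the 33 is accounted for, those called in any comparison by every library's value, the rest by the smallest p-value of their role, and every called gene of the pathway lists is named. Alternatives were another probe set per gene, all probe sets, a filter on dim genes, median centring, another variance model, blocks, a covariate and leaving out each library.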

Additional observations from a re-analysis of the deposited data

How the results depend on the processing

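The 18 differences called among the 33 genes kept their direction under each alternative run. Over 145 values under settings that keep all libraries, 132 kept the call and 13 lost it. Leaving out single libraries kept it in 247 and lost it in 77 of 324 values.

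The number of the 33 genes called for the average flow response, 1, became 2 without the dimmest 25% of genes, with median-centred arrays, with a trend and robust variance model and with the replicate block, and 4 with the culture day block. That block gave 1 gene in tendon and 1 in cornea, where 0 were called without it. Under flow, cornea against tendon gave 2 genes without the dimmest 25%, with the replicate block and with the scan batch block, and 0 after median centring, against 1. Cornea against skin under flow gave 2 with the replicate block and with the scan batch block, against 1. With the beta-actin covariate, static cornea against skin gave 4, against 2. Median centring gave 2 against tendon and 4 against skin for the averaged states, against 4 and 7. The cause was not tested. Replicate numbers did not pair the corneal libraries, and the replicate block kept the call of Sqstm1 (0.74, adjusted p = 0.0089).

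Leaving out single libraries gave 1 to 2 genes for the average flow response and 0 in each tissue and for the interaction. Static cornea gave 0 to 2 against tendon and 2 to 6 against skin; under flow both gave 0 to 2. For the averaged states the counts were 2 to 5 against tendon and 3 to 7 against skin, and tendon against skin gave 0 to 1 throughout. Counts over all genes moved in the same fits, from 98 to 178 for the average flow response. For static cornea they ran from 311 to 647 against tendon and 231 to 497 against skin. Under flow they ran from 185 to 342 and 210 to 384, and for the averaged states from 760 to 1335 and 850 to 1207.

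Over all genes, calls for flow numbered 163 on average, 11 in tendon, 4 in cornea and 5 in skin. The culture day block gave 1273, 220, 60 and 66. Other settings gave 17 to 21 in tendon (largest-variance probe set, scan batch block, beta-actin covariate), 1 to 9 in cornea and 2 to 8 in skin. The covariate gave 663 genes for cornea against tendon (1053 without) and 428 for tendon against skin (661 without). With 3 libraries a group the interaction could not show small differences between tissues. By limma 0 genes were called and 142 (0.781%) had an unadjusted p below 0.05. A share near 0.05 would pass if no response differed, so the test was conservative in this fit, which had no culture day block. The reason was not tested.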
